A study of Mus musculus with 8 samples.

Results

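The aryl hydrocarbon receptor (AHR) pathway and the enzymes that act on aryl carcinogens were followed in bulge cells of mouse back skin, with all probe sets named for 10 listed genes: Cyp1a1, Cyp1b1, Ahr, Ahrr, Arnt, Tiparp, Ephx1, Por, Nat1 and Nat2. The array annotation named 18 probe sets for 9 of these genes, out of 45037 probe sets and 17097 named genes. Por, which encodes the reductase that passes electrons to cytochromes P450, had no probe set under its name in that annotation and was not analysed here. Arnt had 5 probe sets, Cyp1b1 and Tiparp 3 each, Ahr 2, and Cyp1a1, Ahrr, Ephx1, Nat1 and Nat2 had 1 each.

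Hair follicles keep their stem cells in the bulge. The arrays fall into a group of 4 animals with a conditional knockout of G9a, the histone methyltransferase encoded by Ehmt2 (labelled G9a cKO), and a group of 4 wild-type animals (labelled G9a WT), all 15 weeks old. Every animal of both genotypes had received DMBA (7,12-dimethylbenz[a]anthracene, 0.25 mg/ml) and TPA (12-O-tetradecanoylphorbol-13-acetate, 0.02 mg/ml), in 200 µl of solution each, once a week for 6 weeks from an age of 8 weeks. No untreated skin was analysed here, so each value below is a level in treated animals or a difference between genotypes, and no value is an induction by DMBA. The sources used here do not give the promoter that drives the deletion, the method of isolating bulge cells, the animals' sex or the exact time from the last application to collection. By the ages above, the 6 weeks of treatment had ended before the animals reached 15 weeks.

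AHR is a transcription factor that waits in the cytoplasm with HSP90 chaperones until a ligand such as a polycyclic aromatic hydrocarbon binds it. It then enters the nucleus, pairs with ARNT and binds xenobiotic response elements near genes such as Cyp1a1, Cyp1b1, Ahrr and Tiparp. In mouse skin DMBA becomes carcinogenic only after metabolism: the P450 enzymes of the Cyp1 family oxidise it, the microsomal epoxide hydrolase encoded by Ephx1 opens the epoxide, and a further oxidation gives the diol epoxide that binds DNA.

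The labels were checked on Ehmt2, which had 2 probe sets. One of them, 1460692_PM_at, averaged 5.85 (SD 0.41) over the 4 cKO arrays against 9.07 (SD 0.19) over the 4 WT arrays on the log2 scale. In cKO it was highest in replicate 1, at 6.44 against 5.54 to 5.80 in replicates 2 to 4. The other, 1426888_PM_at, averaged 8.41 in both groups, and the sources used here do not say whether the deleted part of the gene includes either. All 12 bulge cell markers were measured and none was dim, a dim probe set being any whose mean over the 8 arrays lay below the 40th percentile of all probe sets (5.23 on the log2 scale). Of these 12, 1 was called lower in cKO, against 0.684% of all genes. It was Fst, which encodes the BMP and activin antagonist follistatin (10.49 ± 0.06 against 10.93 ± 0.18, limma adjusted p = 0.0185). Without WT replicate 4, 2 of the 12 were called lower, where 4.19% of all genes were called in either direction. Of the marker lists of other cells, 7 of 8 macrophage, 6 of 7 endothelial, 5 of 9 fibroblast, 3 of 5 sebocyte, 3 of 7 Langerhans cell, 3 of 8 T cell, 3 of 8 melanocyte and 1 of 8 differentiated epidermis genes were dim. Among the 8 differentiated epidermis markers Sbsn was higher and Krtdap lower in cKO, 25% of the list, against 2.33% of all genes called in either direction. WT replicate 4 stood apart from the other WT arrays: on the first principal component it lay at 1.42, against 15.3 to 23.0 for the other WT arrays and -18.6 to -6.53 for the cKO arrays. The cKO array nearest WT was replicate 1, at -6.53 against -18.6 to -16.6 for cKO replicates 2 to 4. Fits without WT replicate 4 are given here because of its values in these same data, where it was the WT array nearest cKO. Leaving it out raised the calls from 802 to 1691 probe sets, so calls gained in that fit are no separate support. With 4 arrays a group, precision is limited by their number.

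Of the 18 probe sets, 4 were higher in cKO and none lower at an adjusted p under 0.05, against 1.78% of all probe sets called in either direction 1.19% called higher and 0.591% lower. The 4 belonged to 3 genes: Cyp1b1, the P450 that oxidises DMBA in skin, and the neighbouring N-acetyltransferase genes Nat1 and Nat2. In the same 4 probe sets the cKO and WT arrays did not overlap, which held for 7.35% of all probe sets, 4.15% with cKO higher and 3.19% with cKO lower. The receptor gene Ahr, its partner Arnt, the AHR-induced genes Cyp1a1, Ahrr and Tiparp, and Ephx1 did not pass the threshold. The median log2 change over the 18 probe sets was -0.043, against -0.0036 over all probe sets, and 12 of the 18 lay below 0. Adjusted p-values come from limma, with the Benjamini-Hochberg adjustment over all 45037 probe sets.

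**Figure D1:**
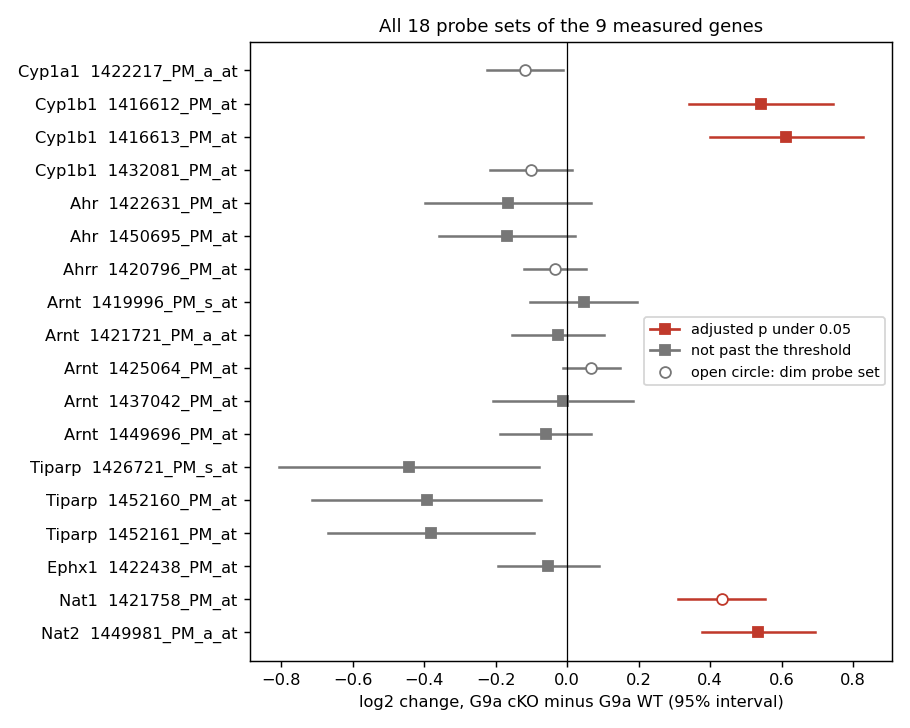
Log2 change between genotypes (cKO minus WT) for each of the 18 probe sets, with the 95% interval of the limma fit, not adjusted for multiple tests. The 2 bright Cyp1b1 probe sets and those of Nat1 and Nat2 lie to the right of 0; the 3 Tiparp probe sets have the lowest changes, from -0.44 to -0.38.

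The promoters of 4 genes known as AHR targets are shown because these are the AHR-induced genes of the list, of which Cyp1b1 alone passed the threshold. Each stretch runs from 250 bases before to 50 bases after the start site in RefSeq (GRCm38.p6), 5′ to 3′ on the gene's own strand. Capitals mark the core of the xenobiotic response element, GCGTG on either strand, so that a match on the other strand reads CACGC.
Cyp1b1, chr17:79715012-79715311, minus strand: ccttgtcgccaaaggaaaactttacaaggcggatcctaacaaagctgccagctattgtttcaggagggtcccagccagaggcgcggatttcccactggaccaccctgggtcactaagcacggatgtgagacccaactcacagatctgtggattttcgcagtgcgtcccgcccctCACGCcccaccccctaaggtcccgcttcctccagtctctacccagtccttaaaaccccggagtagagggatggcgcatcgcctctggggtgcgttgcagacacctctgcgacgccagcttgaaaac
Cyp1a1, chr9:57697363-57697662, plus strand: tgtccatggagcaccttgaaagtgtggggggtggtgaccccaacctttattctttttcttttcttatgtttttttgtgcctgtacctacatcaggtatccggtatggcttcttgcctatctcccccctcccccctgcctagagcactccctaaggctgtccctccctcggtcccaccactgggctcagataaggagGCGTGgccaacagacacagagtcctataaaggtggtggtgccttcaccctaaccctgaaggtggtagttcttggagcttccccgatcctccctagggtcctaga
Tiparp, chr3:65528197-65528496, plus strand: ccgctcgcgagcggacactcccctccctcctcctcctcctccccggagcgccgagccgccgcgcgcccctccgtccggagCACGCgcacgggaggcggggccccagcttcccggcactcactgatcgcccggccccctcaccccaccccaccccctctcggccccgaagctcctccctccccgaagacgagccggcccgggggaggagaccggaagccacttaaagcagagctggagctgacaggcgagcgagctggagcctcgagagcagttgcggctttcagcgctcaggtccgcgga
Ahrr, chr13:74292282-74292581, minus strand: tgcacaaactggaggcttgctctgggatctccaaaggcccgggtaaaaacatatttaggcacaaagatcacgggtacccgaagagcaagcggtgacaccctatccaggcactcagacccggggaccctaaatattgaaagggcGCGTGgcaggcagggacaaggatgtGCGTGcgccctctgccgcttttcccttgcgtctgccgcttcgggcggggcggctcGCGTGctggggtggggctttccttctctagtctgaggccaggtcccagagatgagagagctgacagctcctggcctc
The Cyp1b1 promoter held 1 core, on the other strand, 72 to 76 bases before the start site. Cyp1a1 held 1 core 50 to 54 bases before its start site, and Tiparp held 1 on the other strand 166 to 170 bases before it. Ahrr held 3 cores, of which the one 23 to 27 bases before the start site was part of the longer form TNGCGTG. Of the 7 listed genes with a promoter in the RefSeq table, 6 held the core and 1 the longer form. The core is short and common: it occurred in 32.4% of the 32851 promoters in the table, and the longer form, which contains it, in 5.07%. A match describes letters in this window and is not a measured binding site. Sequence farther than 250 bases before the start site was not searched, so the marked cores are not a full list for any gene.

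Cyp1b1, whose enzyme starts the activation of DMBA in skin, rose in cKO by 1.46-fold and 1.53-fold in its 2 bright probe sets. Probe set 1416612_PM_at read 9.63, 9.72, 9.51 and 9.44 in cKO replicates 1 to 4 and 9.001, 8.81, 9.08 and 9.24 in WT replicates 1 to 4. All cKO arrays lay above all WT arrays, with WT replicate 4 the highest of WT and cKO replicate 4 the lowest of cKO. The means were 9.58 ± 0.13 in cKO and 9.03 ± 0.18 in WT (SD, n = 4 each), a log2 change of 0.54 (SE 0.091, 95% interval 0.34 to 0.74, limma adjusted p = 0.0131). A two-sided permutation test over all splits of the arrays gave an exact p of 0.0286, the lowest this design can reach. Without cKO replicate 2, the array with the highest value, the change was 0.49 and the limma adjusted p 0.0536, while without any other array it stayed under 0.05.

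Probe set 1416613_PM_at, designed on the same accession as the first, read 6.86, 7.14, 6.90 and 6.89 in cKO and 6.33, 6.18, 6.24 and 6.58 in WT. The groups again did not overlap, and again cKO replicate 2 was the highest array and WT replicate 4 the highest of WT. Its log2 change was 0.61 (SE 0.097, 95% interval 0.40 to 0.83, limma adjusted p = 0.00951, exact permutation p = 0.0286), and the call held without each array in turn. Because they share an accession, these probe sets are not independent measurements of the gene.

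The remaining Cyp1b1 probe set, 1432081_PM_at, was designed on another accession and was dim. It read 4.58, 4.42, 4.45 and 4.49 in cKO and 4.56, 4.67, 4.60 and 4.50 in WT, so that the groups overlapped and lay a little lower in cKO. Its log2 change was -0.10 (SE 0.052, 95% interval -0.22 to 0.014, limma adjusted p = 0.465), an interval that lies below the changes of both bright probe sets. The sources used here do not say which part of the transcript it covers. With the log2 values of all 3 probe sets averaged, the Cyp1b1 change was 0.35 (limma adjusted p = 0.0122).

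Cyp1a1, the classic AHR-induced P450, was dim. Probe set 1422217_PM_a_at read 4.32, 4.17, 4.25 and 4.27 in cKO and 4.33, 4.31, 4.46 and 4.39 in WT. The highest cKO array lay above the lowest WT array, and the log2 change was -0.12 (SE 0.048, 95% interval -0.22 to -0.012, limma adjusted p = 0.32). Values so near the bottom of the scale may be mostly background, so a difference between genotypes of the size seen for Cyp1b1 might not be visible there. Probe sets can differ in this: that of Nat1, at a like level, had a log2 change of 0.43.

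**Figure D2:**
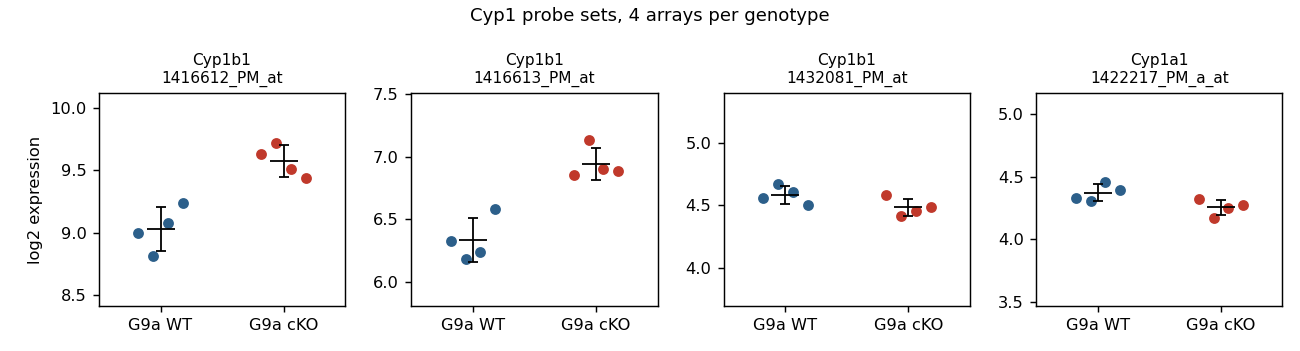
Log2 expression of the 3 Cyp1b1 probe sets and of Cyp1a1 by genotype; each point is 1 array, bars show the mean and SD of 4 arrays, and every panel spans the same number of log2 units. In the 2 bright Cyp1b1 probe sets all cKO points lie above all WT points; the dim Cyp1b1 probe set and Cyp1a1 overlap.

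Nat1 and Nat2 encode arylamine N-acetyltransferases, which conjugate aromatic amines; DMBA is a hydrocarbon and carries no amine. Nat2 rose by 1.45-fold in cKO. Probe set 1449981_PM_a_at read 7.02, 7.10, 6.87 and 6.95 in cKO and 6.39, 6.55, 6.51 and 6.36 in WT. All cKO arrays lay above all WT arrays, and no array stood far from its group. The means were 6.99 ± 0.10 and 6.45 ± 0.09 (SD, n = 4 each), a log2 change of 0.53 (SE 0.072, 95% interval 0.38 to 0.69, limma adjusted p = 0.00375, exact permutation p = 0.0286).

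Nat1 rose by 1.35-fold, from a level near the bottom of the scale. Probe set 1421758_PM_at read 4.62, 4.53, 4.50 and 4.56 in cKO and 4.11, 4.27, 4.03 and 4.08 in WT. The groups did not overlap, and the spread within each was small (SD 0.051 in cKO and 0.11 in WT). Its log2 change was 0.43 (SE 0.055, 95% interval 0.31 to 0.55, limma adjusted p = 0.00281, exact permutation p = 0.0286). RMA compresses differences at such levels, so this fold may be understated. Nat1 and Nat2 are close paralogs, and signal that their probe sets may share makes the part of each uncertain. Both calls held without each array in turn, with log2 changes from 0.40 to 0.48 for Nat1 and from 0.50 to 0.57 for Nat2.

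On chromosome 8, Nat1 and Nat2 lie next to each other and next to Nat3, another member of the family. Nat3 was dim, with cKO at 3.60 ± 0.07 and WT at 3.62 ± 0.03 (limma adjusted p = 0.909). Of the 5 measured protein-coding genes on each side of Nat1, Nat2 and Sh2d4a passed the threshold, against 2.33% of all genes called in either direction. Sh2d4a, which encodes an SH2 domain adaptor, read 6.80, 7.15, 7.19 and 7.11 in cKO and 6.35, 6.52, 6.34 and 6.16 in WT, without overlap (log2 change 0.71, SE 0.10, limma adjusted p = 0.00486). Psd3, between Nat3 and Sh2d4a, did not pass (log2 change 0.030, limma adjusted p = 0.952). Around each of the other 7 measured genes of the list, none of the 10 nearest measured genes passed the threshold, Cyp1b1 included. Just outside this window, Lrrc72, number 6 among the measured genes on one side of Ahr, was dim and higher in cKO without overlap (log2 change 0.48, limma adjusted p = 0.00606). These neighbours were looked at after the values of the listed genes were known.

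**Figure D3:**
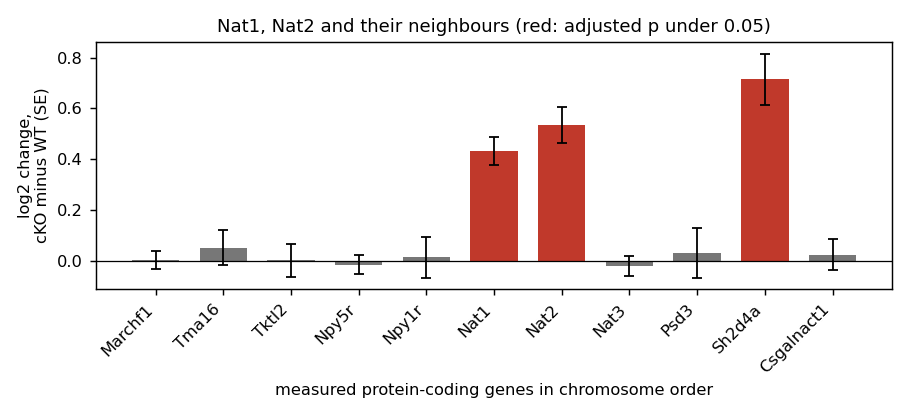
Log2 change between genotypes (cKO minus WT, bars, with the SE of the limma fit) for Nat1, Nat2 and the nearest measured protein-coding genes, in chromosome order. Nat1, Nat2 and Sh2d4a rise above 0 by 0.43, 0.53 and 0.71, while the genes between and beside them lie near 0.

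Ahr itself did not pass the threshold. Its brighter probe set 1450695_PM_at read 6.48, 6.51, 6.47 and 6.45 in cKO and 6.67, 6.75, 6.78 and 6.38 in WT. The cKO arrays lay close together (SD 0.026), WT replicates 1 to 3 lay above all of them and WT replicate 4 below all of them. The log2 change was -0.17 (SE 0.086, 95% interval -0.36 to 0.022, limma adjusted p = 0.461, exact permutation p = 0.143). Without WT replicate 4 it was -0.26 with a limma adjusted p of 0.0484. The other Ahr probe set, 1422631_PM_at, shares the accession, and there too WT replicates 1 to 3 (6.07 to 6.32) lay above all cKO arrays (5.86 to 6.03) and WT replicate 4 (5.77) below them (log2 change -0.17, SE 0.10, limma adjusted p = 0.583).

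Arnt, the obligate partner of AHR and also of hypoxia-inducible factors, differed little between genotypes. None of its 5 probe sets passed, and their log2 changes ran from -0.060 to 0.068. Its brightest probe set, 1421721_PM_a_at, read 8.96, 8.98, 8.90 and 9.04 in cKO and 8.92, 9.05, 9.08 and 8.93 in WT. The arrays of both genotypes were interleaved, with a log2 change of -0.026 (SE 0.058, limma adjusted p = 0.93). The 95% interval, -0.15 to 0.10, does not reach the size of the Cyp1b1 or Nat2 change.

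Tiparp and Ahrr encode feedback repressors of AHR, an ADP-ribosyltransferase and a protein that competes for ARNT. The 3 Tiparp probe sets, all designed on the same accession, lay lower in cKO without passing the threshold. The brightest, 1452161_PM_at, read 8.63, 8.64, 8.49 and 8.34 in cKO and 8.93, 9.28, 8.82 and 8.58 in WT. WT replicate 2 was the highest array and cKO replicate 4 the lowest, in all 3 probe sets, while WT replicate 4 lay among the cKO arrays. Its log2 change was -0.38 (SE 0.13, 95% interval -0.67 to -0.092, limma adjusted p = 0.223, exact permutation p = 0.0857). The others changed by -0.39 (SE 0.14, 1452160_PM_at) and -0.44 (SE 0.16, 1426721_PM_s_at), with limma adjusted p of 0.263 and 0.265. Without WT replicate 4, 2 of the 3 passed, at -0.49 (limma adjusted p = 0.0462) and -0.59 (limma adjusted p = 0.0387), against 3.75% of all probe sets called in that fit.

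Genes of the immediate early response, the rapid transcription that follows growth factors or cell isolation, varied across the arrays with Tiparp. The mean deviation of 19 measured immediate early genes from their 8-array means was 0.30, 0.34, 0.18 and -0.16 in WT replicates 1 to 4 and -0.12, -0.067, -0.21 and -0.25 in cKO replicates 1 to 4. As with Tiparp, WT replicate 2 was highest, cKO replicate 4 lowest and WT replicate 4 among the cKO arrays. The summed level of the list on the linear scale ran from 33435 to 38288 in cKO and from 35178 to 48484 in WT. All 19 lay below 0 and none passed the threshold. Without WT replicate 4, 17 of the 19 were called lower, against 4.19% of all genes called in either direction. The share called lower alone was not computed for that fit. Because WT replicate 4 had the lowest WT mean deviation over these 19 genes, leaving it out widens their mean difference by construction. The part of these genes in the Tiparp values was not tested.

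Ahrr was dim, reading 4.16, 4.07, 4.16 and 4.18 in cKO and 4.13, 4.17, 4.21 and 4.19 in WT. The groups overlapped in part, with cKO replicate 2 below all WT arrays and WT replicates 3 and 4 above all cKO arrays, and the log2 change was -0.034 (SE 0.039, limma adjusted p = 0.817).

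**Figure D4:**
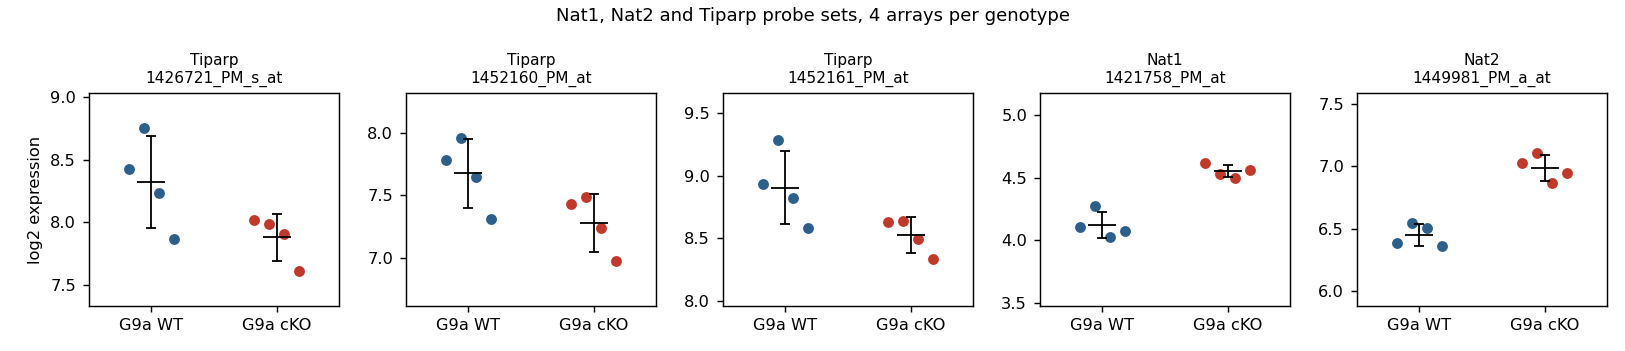
Log2 expression of the 3 Tiparp probe sets and of Nat1 and Nat2 by genotype; each point is 1 array in order of replicate number, bars show the mean and SD of 4 arrays, and every panel spans the same number of log2 units. In Nat1 and Nat2 all cKO points lie above all WT points; in each Tiparp panel the WT point on the right, replicate 4, lies among the cKO points.

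Ephx1, whose hydrolase acts between the oxidation steps of DMBA activation, was strongly detected and differed little between genotypes. Probe set 1422438_PM_at read 11.20, 11.38, 11.43 and 11.37 in cKO and 11.43, 11.36, 11.26 and 11.53 in WT. The lowest array was a cKO and the highest a WT, and the other values were interleaved. The log2 change was -0.052 (SE 0.064, limma adjusted p = 0.834), with a 95% interval of -0.19 to 0.088.

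Around the listed genes, 5 wider lists of the pathway were read with the brightest probe set of each gene, of which 2.33% were called over all 17097 genes, 1.64% higher and 0.684% lower. Conjugation and efflux genes showed 1 rise among 24 measured and no fall. It was Mgst2, a microsomal glutathione transferase, with means of 8.37 ± 0.29 and 7.08 ± 0.23 (2.45-fold, limma adjusted p = 0.00167). Mgst2 read 8.06, 8.75, 8.30 and 8.40 in cKO against 6.92, 7.15, 6.88 and 7.38 in WT, and cKO replicate 2 was again the highest array. The list's median log2 change was 0.014, with 12 genes on each side of 0. Without WT replicate 4, where 4.19% of all genes were called, 4 genes of this list were higher.

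Among 15 measured genes of other phase I oxidation, reduction and hydrolysis, 2 rose and none fell: the aldo-keto reductase genes Akr1c13 (12.4-fold, limma adjusted p = 9.27e-05) and Akr1c12 (2.12-fold, limma adjusted p = 0.0011), whose near-identical family members can share signal. The other Akr1c12 probe set, 1450455_PM_s_at, rose by 7.56-fold (limma adjusted p = 0.000162). Akr1c13 read 8.51, 9.65, 8.67 and 8.64 in cKO against 4.85, 5.45, 5.19 and 5.46 in WT, so cKO replicate 2 was the highest array here too. The median of that list was 0.078, and 12 of the 15 lay above 0. The lowest log2 change was that of the prostaglandin synthase gene Ptgs2, -0.91, in a dim probe set that did not pass (limma adjusted p = 0.0572). Its WT replicates 1 to 3 read 5.06 to 5.51, while WT replicate 4 read 4.38, close to the cKO arrays at 4.13 to 4.33, and its other probe set gave -0.50 (limma adjusted p = 0.0543). Without WT replicate 4 this list had 2 genes higher and 1 lower.

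Of 10 measured genes of the AHR complex, ARNT relatives and coactivators, 1 fell: Epas1, which encodes the hypoxia-inducible factor HIF-2 alpha, another partner of ARNT. It read 6.08, 6.05, 5.76 and 5.66 in cKO and 6.46, 6.38, 6.58 and 6.28 in WT, without overlap (1.45-fold lower, limma adjusted p = 0.0294). Its second probe set lay lower by 1.24-fold without passing (limma adjusted p = 0.0623). The list's median was -0.028.

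None of 10 other measured AHR target genes passed, and 8 lay below 0 (median -0.075); 1 was lower without WT replicate 4. The lowest p was that of Aldh3a1, an aldehyde dehydrogenase gene, with means of 9.27 ± 0.12 in cKO and 9.77 ± 0.27 in WT. All its cKO arrays, 9.17 to 9.41, lay below all WT arrays, 9.49 to 10.12 (limma adjusted p = 0.068). Nqo1, a quinone reductase gene, read 7.36 ± 0.16 and 7.20 ± 0.14 (limma adjusted p = 0.55).

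None of 15 measured genes of the electron and haem supply to P450 enzymes passed either, with a median of 0.021; 1 was higher without WT replicate 4. The lowest p was that of Cyb5a, which encodes cytochrome b5, with cKO at 10.52 ± 0.07 and WT at 10.30 ± 0.12 (limma adjusted p = 0.126).

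**Figure D5:**
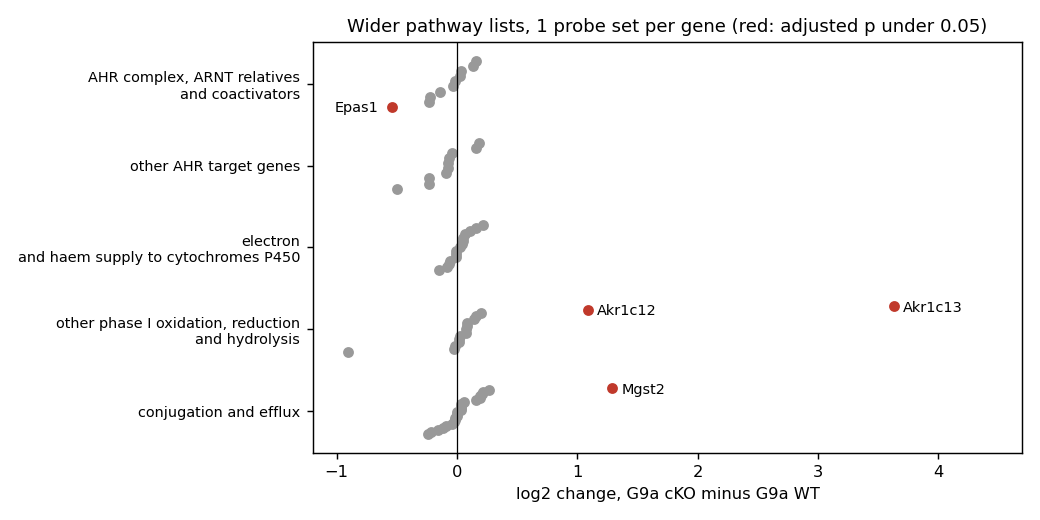
Log2 change between genotypes (cKO minus WT) for each measured gene of 5 wider pathway lists; each point is 1 gene by its brightest probe set, red where the limma adjusted p was under 0.05. Akr1c13, Akr1c12 and Mgst2 stand to the right of 0 and Epas1 to the left, while most other genes lie near 0.

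Cyp1b1 transcripts are also known from fibroblasts, so the marker lists of other cells were read beside its rise. The summed level of 9 fibroblast genes, Thy1 included, ran from 425.6 to 468.8 in cKO and from 436.4 to 456.7 in WT. Col1a1 was lower and Thy1 higher in cKO, 22.2% of these 9 genes, against 2.33% of all genes called in either direction. The rise of Thy1 can hide a fall of the other fibroblast genes in this sum, and their sum without Thy1 was not computed. The T cell list was the only one of the 8 lists of other cells whose summed level did not overlap, at 440.1 to 501.7 in cKO and 389.7 to 434.2 in WT. Without Thy1, a surface protein that both lists hold, its remaining 7 genes ran from 283.3 to 302.0 and from 280.6 to 309.9. Thy1 itself had a log2 change of 0.57 (limma adjusted p = 0.0315), and its part in the Cyp1b1 and Nat values was not tested. The summed level of the differentiated epidermis list ran from 6974 to 7658 in cKO and from 6243 to 6484 in WT replicates 1 to 3. It overlapped only through WT replicate 4, at 7300, and its part in the Cyp1b1 values was not tested. In bulk samples, more cells of a type and more RNA per cell cannot be told apart.

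The 5 genes whose pattern over the 8 arrays was most like that of Cyp1b1 (1416612_PM_at) were Atp2a3, Wdfy4, Skint10, Ppp1r3b and Syt11. After each probe set was centred on its own mean, they differed from Cyp1b1 by 0.050 to 0.060 log2 units per array on average. Atp2a3, which encodes a calcium pump, read 9.41, 9.50, 9.22 and 9.26 in cKO and 8.80, 8.79, 8.89 and 8.99 in WT. In all 5 the cKO arrays lay above the WT arrays, a likeness that the measure itself selects.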

How the data were processed

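RNA from bulge cells of 8 animals, as far as the titles tell animals apart, was hybridised to Affymetrix mouse arrays after amplification of 25 ng in 17 cycles (labels' protocols). The deposited values are log2 expression, computed by the authors with RMA according to the submitters' processing notes; RMA subtracts background, equalises arrays and combines the probes of a probe set, and the sources used here give neither its version nor its settings. They were used without further normalization, with array medians between 5.87 and 5.95. Of 45141 probe sets, 104 controls were left out; 28898 had 1 symbol in the platform annotation, 551 had several and were not named, and 15588 had none. RefSeq's gene table (GRCm38.p6) held the Entrez identifiers of 28689 and gave the order of genes.

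The 4 cKO and 4 WT arrays were compared over the other 45037 probe sets in R 4.3.3 with limma 3.58.1 (a linear model, then eBayes allowing an intensity trend). Tests were two-sided with no covariate, and Benjamini-Hochberg adjusted p-values under 0.05 were called. The procedure was run on simulated data with noise drawn independently for each probe set and array. That check cannot show how calls behave where a whole array stands apart, as WT replicate 4 did. Permutation tests enumerated all splits of the 8 arrays. The p-values measure the spread between these animals. Errors given with ± are SD.

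The genes and lists were chosen with earlier results of these data known, and no p-value was adjusted over a list alone. The rule for naming took all probe sets of the listed genes, Ehmt2, up to 3 called genes per wider list (or the gene of the lowest p), and the 5 genes most like Cyp1b1. Outside it, Nqo1, Ptgs2, Thy1, Col1a1, Fst, Sbsn, Krtdap and the neighbours of the Nat genes and Ahr were chosen after their values were seen. Alternatives were a second quantile normalization, equal array medians, removal of dim probe sets, 1 probe set or the mean per gene, eBayes without trend or robust, weights per array, a block for the replicate number, each array left out in turn, and a threshold of 0.1. Software for the figures was Python 3.11.15 with matplotlib 3.10.9.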

Additional observations from a re-analysis of the deposited data

Results flagged for a closer look

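In 3 of 48 groups of 4 arrays examined, 1 array stood far from the other 3 by Dixon's criterion, and chance gives about 1 in 20. All were the high value of cKO replicate 2. In Cyp1b1 (1416613_PM_at) it read 7.14 against 6.86 to 6.90 in the other cKO arrays. In Akr1c13 (1418672_PM_at) it read 9.65 against 8.51 to 8.67. In Akr1c12 (1422000_PM_at) it read 7.65 against 7.29 to 7.33. Without this array the log2 change of that Cyp1b1 probe set was 0.55 (limma adjusted p = 0.0342).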

How the results depend on the processing

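The 4 calls among the 18 probe sets, Cyp1b1 (2), Nat1 and Nat2, kept their direction under all alternatives that measured them. Nat1 and Nat2 also kept an adjusted p under 0.05 in all of these (limma, highest 0.0154 and 0.0229). With the replicate number as a block, 2 of the 18 were called and 454 probe sets in all. The Cyp1b1 changes of 0.54 and 0.61 then had limma adjusted p of 0.0740 and 0.0505. Tiparp moved the other way without passing. Its limma adjusted p were 0.0967 (1426721_PM_s_at), 0.0511 (1452160_PM_at) and 0.0968 (1452161_PM_at), against 0.265, 0.263 and 0.223 without the block. Over all probe sets, same-numbered deviations had correlations from -0.54 to 0.07, and 1 of 8 arrays correlated best with its own number. Such values cannot show that the numbers carry no pairing, and the labels do not say what the numbers mean. For the immediate early genes and for Tiparp 1452160_PM_at and 1452161_PM_at, both genotypes ran in the same order: replicates 2, 1, 3 and 4 from highest to lowest. Leaving out 1 array gave 419 to 1691 probe sets in all (802 with all arrays) and 3 to 7 among the 18. Over these fits the changes ran from 0.47 to 0.61 for Cyp1b1 1416612_PM_at, from -0.26 to -0.12 for Ahr 1450695_PM_at, from -0.59 to -0.30 for Tiparp 1426721_PM_s_at and from -0.49 to -0.25 for Tiparp 1452161_PM_at. The total called was 472 with 1 probe set per gene and 495 with the mean per gene, where fewer features were tested, 1457 with array weights, and 1355 at a threshold of 0.1; the cause of the change with array weights was not tested. Signal near background limits what can be read from Cyp1a1, Ahrr, Nat1 and 1 probe set each of Cyp1b1 and Arnt.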
